A study of Mus musculus with 12 samples.

Results

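Transcripts of 10 genes of the AP-1 and immediate early response were followed in sorted epidermal immune cells of young mice. The genes are Fos, Fosb, Fosl2, Jun, Junb, Jund, Atf3, Egr1, Ier2 and Dusp1, chosen by symbol, and all 10 of them stand among the 23420 symbols of the table and among the 10023 genes tested. The cells were taken from mouse epidermis by a CD45+CD3-CD11b+MHCII+ sort, the surface type of Langerhans cells and related myeloid cells, in tubes of 100 cells. Wild-type mice (wt) and Cbfβ2 knockout mice (KO) were compared at P5, day 5 after birth, and at 1.5M, an age of 1.5 months, with 3 libraries in each of the 4 groups. Cbfβ2 is a splice form of the core-binding factor beta subunit, the partner of Runx transcription factors. By the labels, the 3 libraries of each group are independent preparations; they give neither animals, strain, pooling nor the cells in which Cbfβ2 was removed, so p-values measure the spread between preparations, which may be technical.

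AP-1 is a family of dimeric transcription factors built from Fos, Jun and ATF proteins that share a basic leucine zipper and bind DNA as pairs. Immediate early genes are switched on within minutes of a signal without new protein synthesis, through MAP kinases and factors already bound at their promoters, and their transcripts decay fast. Fos proteins do not pair with each other and bind DNA with Jun partners, whereas Jun proteins also pair among themselves and with ATF proteins. Dusp1 encodes a phosphatase that switches MAP kinases off again, Egr1 a zinc finger factor and Ier2 a small nuclear protein. In skin, growth factors, ultraviolet light and mechanical stress are known inducers, and taking tissue apart into single cells also induces these genes. How long each sample spent between tissue and lysis is not stated.

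The promoters of Fos, Dusp1 and Fosb are shown because Fos and Dusp1 were higher with the knockout at P5 and Fosb carried the largest difference with age. Each runs 5′ to 3′ on the gene's strand and ends before the annotated start, from RefSeq on GRCm38.p6, with the bases next to the start that lie in an annotated exon left off (47 in Dusp1, 6 in Fosb). Capitals mark TGACGT, the core of a cyclic AMP response element (CRE) bound by CREB and ATF factors, or the EGR site GCGNGGGCG, on either strand.
Fos: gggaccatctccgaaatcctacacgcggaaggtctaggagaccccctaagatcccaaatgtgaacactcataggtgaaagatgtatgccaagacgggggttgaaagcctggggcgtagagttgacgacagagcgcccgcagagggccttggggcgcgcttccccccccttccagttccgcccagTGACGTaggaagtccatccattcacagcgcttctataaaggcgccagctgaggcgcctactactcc
Dusp1: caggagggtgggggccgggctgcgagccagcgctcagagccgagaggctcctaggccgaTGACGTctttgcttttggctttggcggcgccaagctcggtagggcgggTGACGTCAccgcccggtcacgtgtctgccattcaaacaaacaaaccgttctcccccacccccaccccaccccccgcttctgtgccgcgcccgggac
Fosb: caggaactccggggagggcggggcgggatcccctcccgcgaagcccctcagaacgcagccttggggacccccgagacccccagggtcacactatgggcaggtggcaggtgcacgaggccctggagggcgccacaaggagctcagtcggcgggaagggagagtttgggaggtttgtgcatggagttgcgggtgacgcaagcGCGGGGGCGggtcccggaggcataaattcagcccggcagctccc
The Fos stretch is chr12:85473640-85473889 on the plus strand, the Dusp1 stretch chr17:26508520-26508722 on the minus strand, and the Fosb stretch chr7:19310052-19310295 on the minus strand. In Fos the CRE core lies 66 to 61 bases before the start, upstream of a TATAAA at 33 to 28 bases. Dusp1 holds a CRE core at 191 to 186 bases, and another at 143 to 138 bases that overlaps its reverse complement into the full palindrome TGACGTCA. The EGR match of Fosb lies 50 to 42 bases before the start.

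RefSeq entries of 250 bases before the start were used for 8 of the 10 genes, all but Egr1 and Ier2. A CRE core was present in 3 of these 8 (Atf3, Dusp1 and Fos) and in 6.47% of all 32851 such windows. In Atf3 it lies 8 to 3 bases before the start, where the last 7 bases belong to an annotated exon. The EGR site was present in 2 of 8 (Fosb and Fosl2) and in 4.7% of windows. Annotated exons reach further into the Fosl2 window than into those of the other genes. The Jund window ends at base 70697738, well upstream of the annotated Jund start at 70698949. No window of the 8 held the AP-1 site TGANTCA, the CArG box or the Runx hexamer TGTGGT, which 6.75%, 1.47% and 14.0% of all windows held. These are matches of letters in a short window and were not tied to binding.

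Values are scaled molecule counts: the authors' table gives every library the same total of 37092, and the step between values shows what 1 molecule was worth. Depth per library, read from these steps, was 34192 to 52208 molecules for P5 wt and 30913 to 51001 for P5 KO, and at 1.5 months 40254 to 51848 in wt and 74620 to 77420 in KO. Of the sort markers, Ptprc (CD45), Itgam (CD11b) and the MHCII genes Cd74 and H2-Ab1 were present in all 12 libraries, and of the CD3 genes Cd3e and Cd3g were at 0 in all. Cd207, which encodes langerin and defines mature Langerhans cells, was at 0 in all 3 P5 KO libraries and at 0.711 to 2.93 in P5 wt, 18.7 to 24.9 in 1.5M KO and 189 to 252 in 1.5M wt. Cbfb was at 3.91 to 4.97 in P5 wt, 1.46 to 3.63 in P5 KO, and at 1.5 months 7.15 to 13.8 in wt and 0.994 to 2.40 in KO, and a tag from the 3′ end does not tell the Cbfβ2 form from others.

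Libraries also differed in markers of other cells. The summed level of 19 keratinocyte genes was 243 to 761 in P5 KO and 76.2 to 107 in P5 wt, and that of 10 neutrophil genes was 51.9 to 246 and 7.95 to 20.0. Of 9 erythroid genes, the sums in the P5 KO libraries 1, 2 and 3 were 404, 524 and 2.39, against 0 to 4.26 in P5 wt. At 1.5 months the keratinocyte genes summed to 13.95 to 56.2 in wt and 11.98 to 27.3 in KO, the neutrophil genes to 1.62 to 9.18 and 4.53 to 6.45, and the erythroid genes to 0 in wt and at most 0.497 in KO. Of 12 tested macrophage and monocyte genes, 8 were higher in 1.5M KO than in 1.5M wt, against 3.24% of all genes. The list summed to 531 to 609 in 1.5M KO against 75.1 to 95.5 in 1.5M wt, and Fcgr1, Ccr2, Cx3cr1 and Mrc1 were among those at 0 in 1.5M wt. At P5 5 of these 12 were higher in the knockout, against 1.15% of all genes (sums 207 to 248 against 149 to 181). Of 9 tested Langerhans cell genes, 7 rose with age in wt (2.36% of all genes), and in KO 4 rose and 2 fell (1.72% and 1.43%). With the knockout 7 fell at P5 (0.649% of all genes) and 9 at 1.5 months (2.04%). The list includes the MHCII genes Cd74, H2-Ab1 and H2-Eb1, and Cd74 averaged 1614 of a mean sum of 3233 in 1.5M wt. It summed to 1107 to 1217 in P5 wt, 685 to 893 in P5 KO, and at 1.5 months 3114 to 3409 in wt and 1542 to 1852 in KO. The part of these cells in the results on the 10 genes was not tested, and in bulk samples fewer cells of a type cannot be told apart from less RNA per cell.

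Added over the 10 genes, the level was 77.0 to 118 scaled counts in P5 wt, 178 to 193 in P5 KO, and at 1.5 months 317 to 452 in wt and 342 to 415 in KO. The P5 wt libraries were the lowest, the P5 KO libraries came next, and the 1.5M groups overlapped each other. As a share of all molecules this is 0.208% to 0.319% in P5 wt and 0.855% to 1.22% in 1.5M wt.

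**Figure D1:**
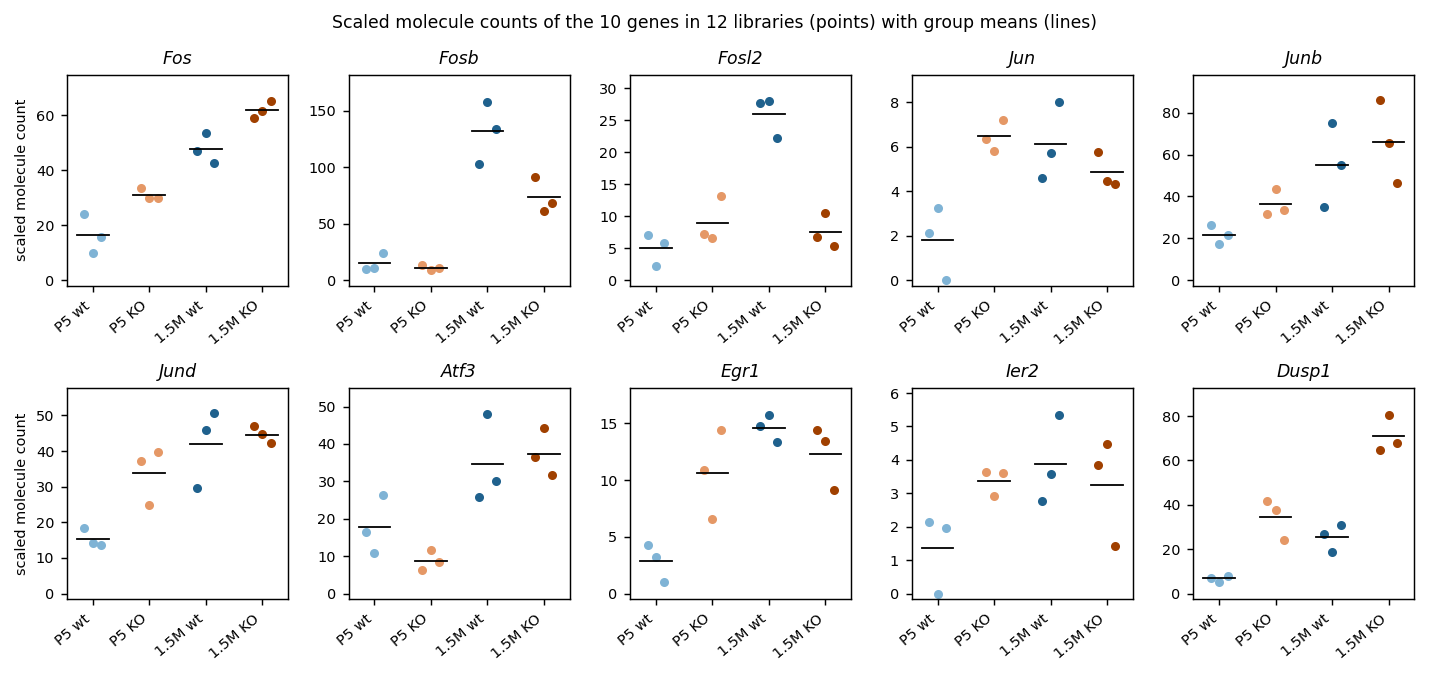
Scaled molecule count (y axis, linear, starting at 0) of each of the 10 genes, 1 panel per gene, in the 4 groups (x axis); points are libraries and lines are group means. Dusp1 lies highest in 1.5M KO at 64.7 to 80.5, and Fosb and Fosl2 lie highest in 1.5M wt.

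With the knockout at P5, 4 of the 10 genes rose (Dusp1, Egr1, Jund and Fos) and 0 fell. Differences were tested on log2(scaled count + 1) with limma over all 12 libraries, and called at an adjusted p under 0.05. Of all genes tested, 1.15% were called higher and 0.649% lower in this comparison. At an unadjusted p under 0.05 there were 9 of the 10, Atf3 among them with a lower level, and 12.8% of all genes. Among the 1197 genes with a mean of at least 5, a level that 8 of the 10 genes reach, 4.76% were called higher. Libraries of P5 KO and P5 wt did not overlap for 7 of the 10 genes, all higher in the knockout, as for 6.23% of all genes. The median log2 difference was 1.01 over the 10 genes and -0.01 over all genes tested. Dusp1 alone was called without P5 wt library 3, without P5 KO library 1 and without P5 KO library 3.

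With the knockout at 1.5 months, 2 of the 10 genes were called. Dusp1 rose and Fosl2 fell, against 3.24% of all genes called higher and 2.04% called lower. The libraries of the 2 genotypes did not overlap for Dusp1 and Fos, higher in the knockout as 13.9% of all genes were, nor for Fosb and Fosl2, lower as 7.18% of all genes were. The median log2 difference of the 10 genes was -0.06, and that of all genes tested 0.09.

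From P5 to 1.5 months in wild type, 8 of the 10 genes rose and 0 fell, where 2.36% of all genes were called higher and 2.84% lower. The difference was positive for all 10. Among genes with a mean of at least 5, 10.4% were called higher, and so were 7 of the 8 of these that belong to the group of 10. The 9 genes other than Atf3 had no overlap between the ages, as had 6.06% of all genes in this direction. The median log2 difference was 1.56 over the 10 genes and -0.22 over all genes tested. Markers of cell types also changed with age in wt. Of 12 tested macrophage and monocyte genes 7 were called lower and 0 higher, and of 17 keratinocyte genes 3 lower and 0 higher. Of 9 Langerhans cell genes 7 were called higher and 0 lower. The part of these cells was not tested. The deposited scaling leaves the median of the 1197 better measured genes at -0.165 in this comparison; scaled by the median of ratios it lay at 0.03, calls among all genes went from 237 higher and 285 lower to 289 and 184, and 9 of the 10 genes were called higher, with Atf3 added.

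With age in the knockout, 4 of the 10 genes rose (Fosb, Atf3, Fos and Dusp1) and 0 fell, against 1.72% of all genes called higher and 1.43% lower. Among genes with a mean of at least 5, 9.52% were called higher, and 4 of the 8. At an unadjusted p under 0.05 Junb joined these 4, again higher, against 14.2% of all genes. The groups did not overlap for 6 genes that were higher at 1.5 months, as for 8.15% of all genes. They also did not overlap for Jun, which lay lower at 1.5 months, as did 1002 of the 10023 genes. Here the median log2 difference was 0.61 over the 10 genes and -0.06 over all genes tested. In the same comparison 13 of 17 tested keratinocyte genes, 5 of 5 erythroid genes and 2 of 4 neutrophil genes were called lower at 1.5 months, and 5 of 12 macrophage and monocyte genes higher and 1 lower. The part of these cells in the changes with age was not tested. The 4 comparisons share groups: each group enters one comparison of genotype and one of age, so their values stand side by side and none supports another.

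**Figure D2:**
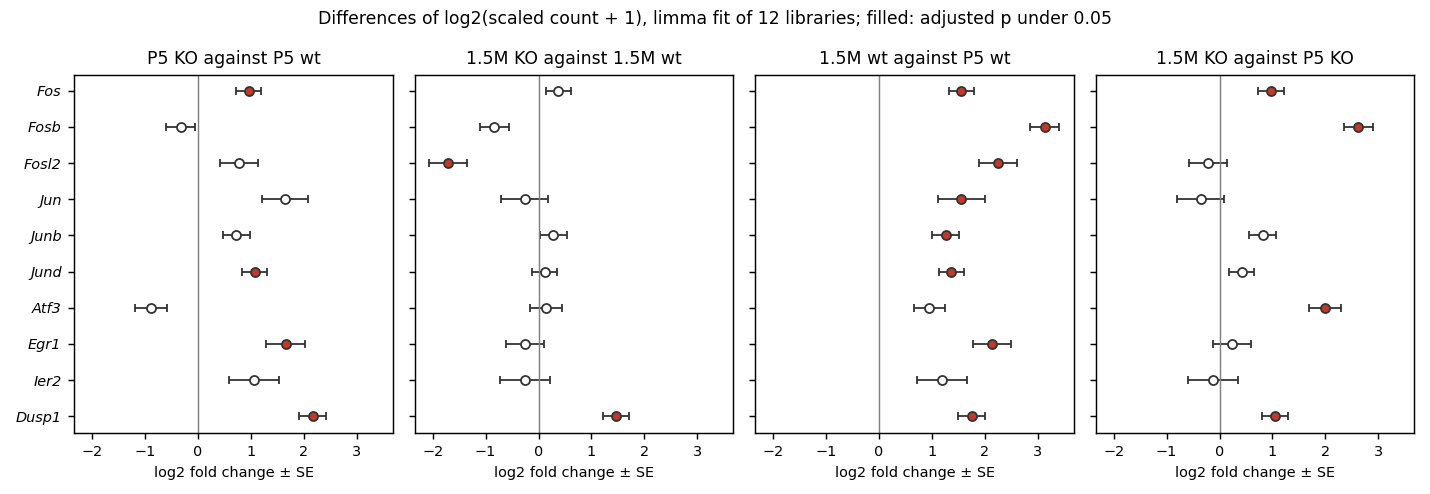
Difference in log2(scaled count + 1) with its standard error (x axis, bars) for the 10 genes (y axis) in 4 comparisons, from the limma fit of 12 libraries; filled points have an adjusted p under 0.05. In 1.5M wt against P5 wt all 10 points lie to the right of 0 and 8 are filled, while in 1.5M KO against 1.5M wt only Fosl2 and Dusp1 are filled.

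Fos, the founding member of its family and a partner of Jun proteins, is on chromosome 12 (85473890 to 85477273, GRCm38, plus strand). It was at 24.2, 9.76 and 15.6 scaled counts in the P5 wt libraries, 33.6, 29.8 and 30.0 in P5 KO, and at 1.5 months 47.0, 53.7 and 42.7 in wt and 59.0, 61.6 and 65.2 in KO. The 4 groups stood in that order with no overlap between neighbours. At P5 the mean was 1.89 times higher in KO (31.1 ± 2.14 against 16.5 ± 7.24, SD, n = 3 each; log2 difference 0.96, SE 0.24, adjusted p = 0.0421), and at 1.5 months the log2 difference was 0.37 (SE 0.24, adjusted p = 0.552). With age it rose by 1.56 in wt (SE 0.24, adjusted p = 0.000171) and by 0.97 in KO (SE 0.24, adjusted p = 0.0237). The call at P5 was lost without any P5 library other than P5 wt library 1, without 1.5M wt library 2 or 3, and in 6 of 11 other settings (adjusted p 0.0548 to 0.101), all with the difference in the same direction. The call with age in KO was lost by thinning (0.14) and in 5 of 12 fits without 1 library (adjusted p 0.05 to 0.0943), those without any 1 P5 KO library or without 1.5M KO library 2 or 3.

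Fosb is a close relative of Fos, known from lasting responses in which its products persist, and lies on chromosome 7 (19302696 to 19310051, minus strand). Its 3 libraries stood at 9.95, 10.8 and 24.4 in P5 wt and 13.6, 8.73 and 10.8 in P5 KO, and at 1.5 months at 103, 158 and 134 in wt and 91.1, 61.1 and 68.0 in KO. Both groups at 1.5 months were above both at P5, and the P5 groups overlapped. With age the mean was 8.75 times higher in wt (131.8 ± 27.5 against 15.1 ± 8.11; log2 difference 3.14, SE 0.27, adjusted p = 7.44e-08) and 6.65 times higher in KO (log2 difference 2.63, SE 0.27, adjusted p = 1.72e-06). These are the largest log2 differences among the 10 genes in each of these comparisons.

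Between genotypes, the 1.5 month libraries of Fosb did not overlap, with 73.4 ± 15.7 in KO, but the log2 difference of -0.83 (SE 0.27, adjusted p = 0.0889) missed the threshold. It passed in 5 of 11 other settings, with adjusted p from 2.59e-06 with voom on approximate molecules to 0.0433 with a pseudocount of 10, and without P5 wt library 3 (0.0269). At P5 the log2 difference was -0.32 (SE 0.27, adjusted p = 0.697).

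Fosl2, which encodes Fra-2, a Fos protein without a strong activation domain, is on chromosome 5 (32135801 to 32157842, plus strand). It was at 7.10, 2.17 and 5.86 in P5 wt, 7.27, 6.55 and 13.2 in P5 KO, and at 1.5 months 27.6, 27.9 and 22.2 in wt and 6.71, 10.4 and 5.27 in KO. The 3 libraries of 1.5M wt stood above all 9 others, and the other groups overlapped. In wild type it rose with age (25.9 ± 3.21 against 5.05 ± 2.57; log2 difference 2.26, SE 0.36, adjusted p = 0.000269). In the knockout the log2 difference with age was -0.23 (SE 0.36, adjusted p = 0.864). At 1.5 months it was lower in KO (7.47 ± 2.67; log2 difference -1.71, SE 0.36, adjusted p = 0.00402), while at P5 the log2 difference was 0.78 (SE 0.36, adjusted p = 0.362). The Langerhans cell list, MHCII genes included, was likewise highest in 1.5M wt, and its part in the Fosl2 values was not tested.

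The knockout differences at the 2 ages themselves differed for Fosl2, by -2.48 on the log2 scale (1.5 months minus P5, SE 0.51, adjusted p = 0.00836). It was the only one of the 10 genes called in this test, where 1.32% of all genes were called with a positive and 0.678% with a negative value. Thinning all libraries to 30966 molecules, the lowest library total once each gene was rounded to whole molecules, ended both Fosl2 calls that involve the knockout (adjusted p = 0.0836 at 1.5 months and 0.0823 for the difference), with values of -1.39 and -2.30. Egr1 came next, at -1.91 (SE 0.51, adjusted p = 0.0549), and the remaining genes lay between -1.91 for Jun (SE 0.62, adjusted p = 0.13) and 1.04 for Atf3 (SE 0.43, adjusted p = 0.277). The median was -0.82 over the 10 genes and 0.13 over all genes tested.

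Within the Fos family, Fos gave the larger share of molecules in P5 KO and Fosb in 1.5M wt. An oligo-dT primer takes each molecule near its poly(A) end, so a count stands for a molecule whatever the gene's length, and shares are given on that scale. Fos, Fosb, Fosl1 and Fosl2 together came to 36.6 ± 12.2 in P5 wt, 51.8 ± 5.93 in P5 KO, and at 1.5 months 205.8 ± 31.0 in wt and 143.0 ± 12.7 in KO. Fos made up 55.6% to 66.1% of this in P5 KO and 21.4% to 26.3% in 1.5M wt, where Fosb made up 57.7% to 67.4%. In 1.5M KO the share of Fos was 37.5% to 47.1% and that of Fosl2 3.81% to 7.84%, against 11.2% to 15.5% for Fosl2 in 1.5M wt. In P5 wt the Fosb share ranged from 24.1% to 53.2%, with the highest in library 3. Fosl1, which encodes Fra-1, was seen in 3 of the 12 libraries, with 2 molecules in P5 KO library 1 and 1 each in 1.5M wt library 1 and 1.5M KO library 1.

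**Figure D3:**
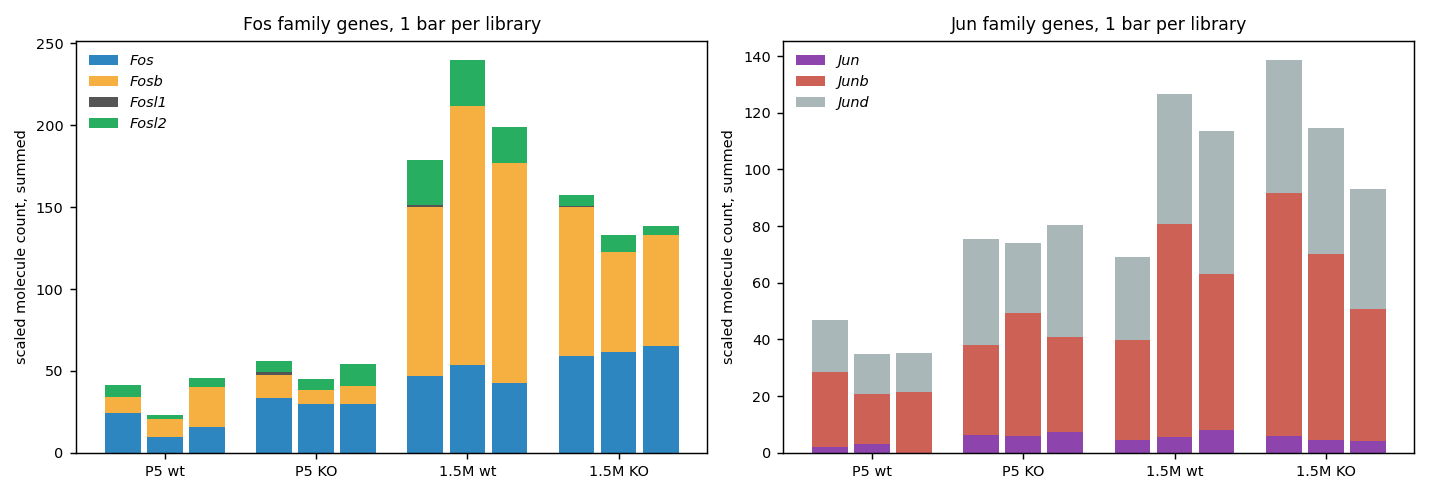
Scaled molecule counts of the Fos family genes (left) and Jun family genes (right), stacked, 1 bar per library on linear axes from 0, with groups along the x axis. Fosb fills 57.7% to 67.4% of each 1.5M wt bar on the left, and Junb and Jund fill most of each bar on the right.

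Jun, Junb and Jund encode the Jun proteins, of which Jund is known for steady expression in resting cells and Junb for holding back Jun in several settings. Junb, on chromosome 8 (84974484 to 84978718, minus strand), was at 26.3, 17.4 and 21.5 in P5 wt, 31.8, 43.6 and 33.6 in P5 KO, and at 1.5 months 35.0, 75.1 and 55.1 in wt and 85.8, 65.6 and 46.5 in KO. P5 wt was below every other library, and the groups above it overlapped their neighbours in the order of means. It rose with age in wt (log2 difference 1.26, SE 0.26, adjusted p = 0.00395). The log2 difference was 0.72 with the knockout at P5 (SE 0.26, adjusted p = 0.199), 0.28 with the knockout at 1.5 months (SE 0.26, adjusted p = 0.727) and 0.81 with age in KO (SE 0.26, adjusted p = 0.0977).

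Jund, also on chromosome 8 (70698949 to 70700616, plus strand), was at 18.5, 14.1 and 13.7 in P5 wt and 37.2, 24.7 and 39.6 in P5 KO, with no overlap. At 1.5 months it was at 29.5, 45.8 and 50.6 in wt and 47.0, 44.7 and 42.2 in KO, which overlapped. The knockout difference passed at P5 (33.9 ± 7.99 against 15.4 ± 2.66; log2 difference 1.07, SE 0.23, adjusted p = 0.0189). It was 0.12 at 1.5 months (SE 0.23, adjusted p = 0.902). With age Jund rose in wt (log2 difference 1.36, SE 0.23, adjusted p = 0.000612), and in KO the log2 difference was 0.42 (SE 0.23, adjusted p = 0.459). Leaving out library 2 or 3 of P5 wt, or library 1 or 3 of P5 KO, ended the call at P5 (adjusted p 0.0713 to 0.0888), as did thinning (0.0812) and voom (0.0644).

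Jun itself, on chromosome 4 (95049034 to 95052222, minus strand), was low. It was at 2.13, 3.25 and 0 in P5 wt, 6.36, 5.82 and 7.2 in P5 KO, and at 1.5 months 4.61, 5.72 and 8.0 in wt and 5.75, 4.47 and 4.31 in KO. P5 wt, with 6 molecules over its 3 libraries, was below every library of the other groups, where 21 to 30 molecules were counted per group. The rise with age in wt was called (log2 difference 1.56, SE 0.44, adjusted p = 0.0399). This call was lost in 6 of the 10 other settings that tested Jun (adjusted p 0.0508 to 0.179). It was also lost without P5 wt library 1 or 3 or any 1 library of 1.5M wt. Jun did not reach a mean of at least 5 and was not tested under that filter. At P5 the knockout difference was 1.65 (SE 0.44, adjusted p = 0.0569) and passed without P5 wt library 2 (0.0279). In KO the ages did not overlap, with 1.5 months lower, and the difference did not pass the test (log2 difference -0.36, SE 0.44, adjusted p = 0.813). In the Jun family as a whole, Junb made up 41.8% to 61.9% of the molecules over the 12 libraries and Jun at most 9.38%. In the annotation, Jun and Jund overlap antisense transcripts, Junb overlaps Prdx2 on the opposite strand and Dusp1 overlaps Ergic1 likewise; use of strand in counting is not given, so molecules of such partners cannot be told apart where they overlap.

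Atf3 encodes a stress-induced ATF factor that pairs with Jun proteins and represses many targets, and lies on chromosome 1 (191170296 to 191218039, minus strand). It was at 16.3, 10.8 and 26.4 in P5 wt, 6.36, 11.6 and 8.40 in P5 KO, and at 1.5 months 25.8, 47.9 and 30.2 in wt and 36.5, 44.2 and 31.6 in KO. All 3 P5 KO libraries were below all 6 libraries at 1.5 months, and each group overlapped the next in the order of means. With age it rose in the knockout (37.4 ± 6.37 against 8.80 ± 2.66; log2 difference 1.99, SE 0.30, adjusted p = 0.00023). In wild type the log2 difference with age was 0.95 (SE 0.30, adjusted p = 0.069), which passed in 3 of 11 other settings (adjusted p 0.0172 to 0.0292) and without P5 wt library 3 (0.0209). Atf3 and Fosb were the only genes of the 10 with a mean in P5 KO below that in P5 wt. For Atf3 the log2 difference was -0.90 (SE 0.30, adjusted p = 0.165). This fall passed in 1 of 11 other settings, the filter at a mean of at least 5 (adjusted p = 0.0487). At 1.5 months the knockout difference was 0.14 (SE 0.30, adjusted p = 0.913).

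Egr1 was at 4.26, 3.25 and 0.977 in P5 wt, 10.9, 6.55 and 14.4 in P5 KO, and at 1.5 months 14.7, 15.7 and 13.3 in wt and 14.4, 13.4 and 9.10 in KO. P5 wt was below every library of the other groups, which overlapped each other in the order of means. The knockout difference passed at P5 (10.6 ± 3.93 against 2.83 ± 1.68; log2 difference 1.66, SE 0.36, adjusted p = 0.0188), with 33 molecules over the group against 10. At 1.5 months it was -0.25 (SE 0.36, adjusted p = 0.855). Egr1 rose with age in wt (log2 difference 2.14, SE 0.36, adjusted p = 0.000536) and in KO the log2 difference was 0.23 (SE 0.36, adjusted p = 0.86). The call at P5 was lost without P5 wt library 3 (0.109), P5 KO library 1 (0.0696) or P5 KO library 3 (0.0922), by thinning (0.103) and with voom (0.102).

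Ier2, on chromosome 8 (84661331 to 84662852, minus strand), was the lowest of the genes. It was at 2.13, 0 and 1.95 in P5 wt, 3.63, 2.91 and 3.6 in P5 KO, and at 1.5 months 2.76, 3.58 and 5.33 in wt and 3.84, 4.47 and 1.44 in KO. It passed in none of the 5 tests, with 5 molecules over the P5 wt libraries and 11 to 20 in each other group. The log2 differences were 1.06 with the knockout at P5 (SE 0.47, adjusted p = 0.345) and 1.19 with age in wt (SE 0.47, adjusted p = 0.174).

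Dusp1, the MAP kinase phosphatase of the set, showed the largest knockout difference of the 10 genes at P5 and the only rise at 1.5 months. Its gene is on chromosome 17 (26505590 to 26562128, minus strand, in the annotation with its longest transcript). It was at 7.10, 5.42 and 7.81 in P5 wt, 41.8, 37.8 and 24.0 in P5 KO, and at 1.5 months 26.7, 18.6 and 31.1 in wt and 64.7, 80.5 and 68.0 in KO. P5 wt was below and 1.5M KO above every other library, and P5 KO overlapped 1.5M wt.

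At P5 the Dusp1 mean was 5.09 times higher in KO (34.5 ± 9.34 against 6.78 ± 1.23; log2 difference 2.17, SE 0.25, adjusted p = 3.28e-05) and at 1.5 months 2.79 times higher (71.1 ± 8.33 against 25.5 ± 6.34; log2 difference 1.47, SE 0.25, adjusted p = 0.000406). The difference between these was -0.70 (SE 0.35, adjusted p = 0.404). Both calls held in all 11 other settings and without any 1 library, with adjusted p up to 0.00239 at P5 and up to 0.0189 at 1.5 months. Macrophage and monocyte markers were also higher in KO at both ages, and their part in the Dusp1 values was not tested. At P5 the log2 difference was 2.20 with the keratinocyte, neutrophil and erythroid genes taken out and the libraries rescaled. That step leaves Dusp1 molecules from such cells in the count, so it cannot tell the part of these cells. With age Dusp1 rose in wt (log2 difference 1.75, SE 0.25, adjusted p = 6.88e-05) and in KO (1.05, SE 0.25, adjusted p = 0.0181), where the call was lost by thinning (0.155) and without P5 KO library 3 (0.102) or 1.5M KO library 2 (0.106) or 3 (0.054).

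Genes around this response were taken from 4 lists. The first holds 17 other basic leucine zipper genes of the AP-1, Maf and related families, of which 14 were tested. With the knockout at P5 1 was called higher (Maf) and 0 lower. At 1.5 months 1 was higher in KO (Nfe2l2) and 1 lower (Maff). With age 2 rose in wt (Maff and Atf4), and 0 were called by limma in KO (3 at an unadjusted p under 0.05). All 10023 genes were called in either direction in 1.8%, 5.28%, 5.21% and 3.14% of cases in these 4 comparisons.

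Maff, a small Maf protein without an activation domain, was, like Fosl2, highest in 1.5M wt, at 19.4, 12.2 and 17.8 against 4.32, 6.46 and 4.79 in 1.5M KO, and 3 molecules in all of P5 wt. Its knockout difference at 1.5 months was -1.48 (SE 0.41, adjusted p = 0.0325). Nfe2l2, which encodes the oxidative stress factor NRF2, was at 2.09 on average in 1.5M wt and 9.91 in 1.5M KO (adjusted p = 0.00242). Maf averaged 1.55 in P5 wt, from 6 molecules, and 7.19 in P5 KO (adjusted p = 0.045).

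Of 32 other immediate early genes, 28 were tested. With the knockout at P5 5 rose and 0 fell, against 1.15% of all genes called higher and 0.649% lower. At 1.5 months 3 rose and 2 fell, against 3.24% and 2.04%. With age in wt 9 rose and 0 fell, against 2.36% and 2.84%, and with age in KO 0 rose and 1 fell (Btg1), against 1.72% and 1.43%, so that this last count is near that of all genes. At P5 the risers were Klf2, Klf6, Gadd45b, Btg1 and Zfp36l1. Btg1, which restrains proliferation, was at 17.0, 17.4 and 11.7 in P5 wt and 49.0, 34.2 and 33.6 in P5 KO, and at 1.5 months at 41.5, 35.0 and 38.2 in wt and 23.0, 15.4 and 9.58 in KO. Its libraries separated the genotypes without overlap at both ages, higher in KO at P5 (log2 difference 1.28, SE 0.27, adjusted p = 0.0139) and lower at 1.5 months (-1.28, SE 0.27, adjusted p = 0.00383). The difference between the ages was -2.57 (SE 0.38, adjusted p = 0.000285).

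Zfp36l1, which encodes a protein that speeds the decay of AU-rich transcripts, also differed between the ages in this test (-1.87, SE 0.36, adjusted p = 0.00512), with means of 15.03 in P5 wt, 34.7 in P5 KO, and at 1.5 months 32.5 in wt and 19.5 in KO. Btg2, a relative of Btg1, was at 1.5 months at 42.4, 61.5 and 56.0 in wt and 8.15, 9.45 and 12.5 in KO (log2 difference -2.30, SE 0.38, adjusted p = 0.000293). Klf4 and Klf6, Krüppel-like factors, were higher in the knockout at 1.5 months: Klf4 averaged 3.15 in wt and 12.4 in KO (adjusted p = 0.00374) and Klf6 8.05 and 26.0 (adjusted p = 0.00465). Klf2 was counted at 2 molecules in each wt group and averaged 9.38 in P5 KO (adjusted p = 0.0126) and 5.64 in 1.5M KO (adjusted p = 0.0177). With age in wt, Nr4a1, an orphan nuclear receptor, rose from 8.14 to 39.97 (log2 difference 2.18, SE 0.26, adjusted p = 6.87e-06) and Csrnp1 from 3.66 to 19.6 (2.15, SE 0.35, adjusted p = 0.00037). Gadd45b, a stress sensor, averaged 3.47 in P5 wt and 12.4 in P5 KO (adjusted p = 0.0156).

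On the route that leads to these promoters, of 37 kinases and promoter-bound factors, among them the ERK, JNK and p38 kinases, SRF and CREB, 33 were tested by limma. Crem was called lower in 1.5M KO and higher with age in wt, 1 of 33 each time, where 5.28% and 5.21% of all genes were called in either direction. At P5 0 were called (1.8% of all genes) and 1 had an unadjusted p under 0.05 (12.8%), and with age in KO 0 were called (3.14%) and 3 had such a p (14.2%). Crem, a cyclic AMP response factor whose short forms repress, was at 1.5 months at 25.8, 18.6 and 24.0 in wt and 2.88, 1.99 and 3.35 in KO (log2 difference -2.67, SE 0.48, adjusted p = 0.000837), and averaged 1.16 in P5 wt and 1.21 in P5 KO. Of 17 feedback genes, phosphatases and Sprouty proteins, 13 were tested: Dusp2 rose with age in wt (5.48 to 35.8, log2 difference 2.77, SE 0.41, adjusted p = 0.000116) and Dusp3 was called higher in 1.5M KO (4.07 on average, with 1 molecule in 1.5M wt, adjusted p = 0.0392). Of the 13 feedback genes limma called 0 at P5 and 0 with age in KO, and 3 and 2 had an unadjusted p under 0.05, against 12.8% and 14.2% of all genes.

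**Figure D4:**
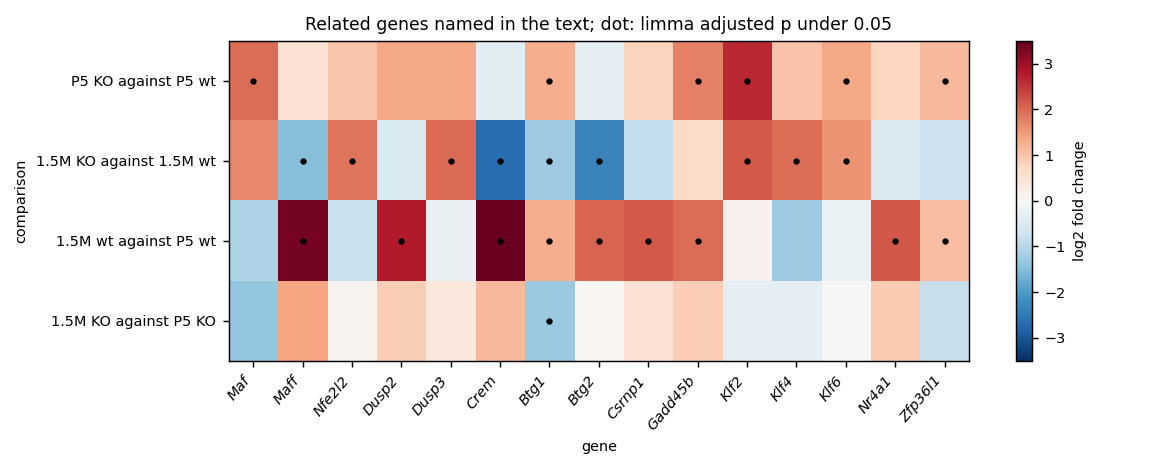
Differences in log2(scaled count + 1) (colour, blue below 0 and red above) of 15 related genes (x axis) in 4 comparisons (y axis); dots mark a limma adjusted p under 0.05. Crem, Btg2 and Maff are blue in 1.5M KO against 1.5M wt and red in 1.5M wt against P5 wt, and Btg1 has a dot in all 4 rows.

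Across the 12 libraries most pairs of the 10 genes were correlated above 0. Pearson's correlation of log2(scaled count + 1) between pairs of them had a median of 0.63 over 45 pairs and was above 0 in 44. With group means taken out the median was 0.21 (-0.62 to 0.74) and 32 of 45 pairs were above 0. Libraries share scaling, depth and group, and these correlations are descriptions. Among 512 other genes averaging at least 10, those most like the mean of the 10 genes over the 12 libraries were Nr4a1 (0.95), Cdkn1a (0.94), Dusp2 (0.92), S100a6 (0.91) and Tnfaip3 (0.91). Cdkn1a, a cell cycle inhibitor, averaged 6.81 in P5 wt, 12.7 in P5 KO, and at 1.5 months 38.2 in wt and 26.7 in KO. Within groups the most alike were Ahnak (0.88), Tmbim6 (0.84), Srsf2 (0.83), Rap1a (0.83) and Cdkn1a (0.80), and only Cdkn1a was on both lists.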

How the data were processed

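RNA of 12 libraries was counted with molecular barcodes on oligo-dT primed cDNA, per the labels' protocols. The authors aligned reads with TopHat2 to mm10, per the submitters' processing notes; versions, annotation, counting and scaling are not given in the sources used here. By its values, the authors' deposited signal is a molecule count scaled to 1 total of 37092 per library: 92.65% to 94.89% of values above 0 were whole multiples, within 0.01, of a step per library. As this is under 95%, no count model was used. All 120 values of the 10 genes were whole by the same tolerance. Spike-in RNA named in the labels was not used here.

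Genes above 0 in at least 3 of 12 libraries (10023) were fitted as 4 group means on log2(value + 1) by limma 3.58.1 (R 4.3.3) using its trend option. Two-sided p-values were adjusted by Benjamini-Hochberg over all genes tested and called under 0.05. A gene at 0 in a library could hold up to 3 molecules there, a floor for counting error only. Pairs of replicates differed beyond sampling noise (chi-square 1.17 to 2.18 per degree of freedom). The 10 genes, the related lists and the markers were chosen with earlier results of these data known. Named genes are the 10, related genes past the threshold (up to 6 per comparison and direction by log2 difference) and the 5 most alike by each correlation; Atf4 was added after its values were seen. 1 gene of the related lists is not reported here. Scripts were tested on simulated data, with changes put into genes with a mean of at least 5. With the knockout at P5, 10.7% of 2-fold and 61.3% of 4-fold changes were called. At 1.5 months these were 8.06% and 55.6%, so a gene that was not called may still differ. Gene positions are from GENCODE on GRCm38, the build also called mm10. Alternatives were pseudocounts of 0.1 and 10, other filters, median-of-ratios scaling, thinning, voom, the compared groups alone, other cells' genes removed, a replicate block and each library left out.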

Additional observations from a re-analysis of the deposited data

Results flagged for a closer look

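Fosl2 stands out because its knockout difference changed with age in a direct test: -2.48 on the log2 scale for 1.5 months minus P5 (SE 0.51, limma adjusted p = 0.00836). The 3 libraries of 1.5M wt, at 22.2 to 27.9, were above all others. The P5 groups overlapped, with 18 molecules over P5 wt and 28 over P5 KO. Macrophage and monocyte markers, at 531 to 609 in 1.5M KO and 75.1 to 95.5 in 1.5M wt, also differed between these groups, and their part in it was not tested.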

How the results depend on the processing

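Over 50 results on single genes of the 10, 620 alternative values were compared. The 12 fits without 1 library entered each result only by their lowest and highest adjusted p. Of the 620 values, 575 were on the same side of the threshold, 26 lost a call and 19 gained one, and none changed direction while called. Single fits without 1 library are thus not all counted: the Fos call at P5 alone was lost in 7 of 12. Genes called with the knockout at P5 (180) were 92 with a pseudocount of 0.1, 118 with no filter, 47 after thinning and 72 to 146 without 1 library. Of the 10 genes (4), 1 was called after thinning, 1 with voom and 1 to 4 without 1 library. At a mean of at least 5, 4 of them were called higher and 1 lower (Atf3). With the knockout at 1.5 months, 529 became 297 at a mean of at least 5, 865 with voom and 359 to 560 without 1 library; of the 10 genes (2) 1 after thinning and 2 to 3 without 1 library. With age in wt, 522 became 287 after thinning and 346 to 581 without 1 library, lowest without 1.5M wt library 1; of the 10 genes 7 to 8. With age in KO, 315 became 176 after thinning, 910 with voom and 169 to 337 without 1 library; of the 10 genes (4) 2 after thinning and 2 to 4 without 1 library. For the difference between knockout effects, 200 became 133 with a pseudocount of 0.1, 100 after thinning, 348 with voom and 141 to 193 without 1 library; of the 10 genes (1) 3 at a mean of at least 5, 2 with median-of-ratios scaling, 0 after thinning and 1 to 2 without 1 library. The causes were not tested.

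Libraries with the same replicate number showed little shared deviation: of 18 such pairs, 1 had a correlation of deviations above 0.1 (-0.055 to 0.109, 1197 genes). Pairs with different numbers were not set beside them, so this check cannot tell whether the numbers pair the samples. With the replicate block, 147, 508, 504, 315 and 195 genes were called, and 4, 2, 8, 4 and 1 of the 10. Depth limits Jun and Ier2, at 5 to 30 molecules per group. Counts over the P5 groups were also low for Egr1 (10 molecules in wt, 33 in KO) and Fosl2 (18 and 28), and for Dusp1 in wt (23). Fits of only the compared groups with their own filter were added after seeing the data.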
